A study of Homo sapiens with 18 samples.

Results

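The genes described here are the CDK inhibitors and the RB family, 10 of the 63677 genes counted, and they were chosen by name: CDKN1A, CDKN1B and CDKN1C of the Cip/Kip group, CDKN2A, CDKN2B, CDKN2C and CDKN2D of the INK4 group, and the pocket protein genes RB1, RBL1 and RBL2. Each symbol matched 1 row of the count table, and 9 of the 10 passed the filter on low counts, which left 15576 genes for testing. CDKN1C did not pass it. The cells were NCI-H1299, an established human lung cancer line, grown in DMEM with serum and used at passages 12 to 14. The 18 libraries fell into 6 groups of 3: Ctl, EV, and cells transiently overexpressing TBX2, TBX3, TBX4 or TBX5. EV stands for empty vector, and the labels give no treatment for Ctl. The TBX2 and TBX4 plasmids (pORF) held human genes with a Flag tag, while TBX3 (human) and TBX5 (mouse) had an HA tag in another backbone, pCGN, and which backbone the EV cells received is not given in the sources used here. Transient transfection reaches only a part of the cells, so each library averages transfected and untransfected cells, and fewer expressing cells cannot be told apart from less RNA per cell. The hours between transfection and RNA extraction are not given in the sources used here. Replicates a, b and c were labelled as separate samples, without a statement on separate cultures, so the spread between them may be technical.

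CDK inhibitors are small proteins that bind cyclin-dependent kinases and slow entry into S phase. The Cip/Kip proteins bind complexes of cyclins with CDK2 and other kinases, whereas the INK4 proteins bind CDK4 and CDK6 and keep D-type cyclins from activating them. Their common effect is to keep the pocket proteins pRB, p107 and p130 unphosphorylated and bound to E2F factors, which holds genes of DNA replication and mitosis silent. T-box factors bind DNA through the T-box domain. TBX2 and TBX3 are known as repressors of CDKN1A and of the p14ARF transcript of CDKN2A, and have been linked to bypass of senescence, while TBX4 and TBX5 are better known as activators.

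Libraries held 7365221 to 11743179 counts (median 9167758). In each, 1 gene, ENSG00000266658, took between 10.7% and 53.5% of the counts, and this share was uneven within groups (22.5%, 53.5% and 52.7% in the TBX5 libraries). Levels are therefore given as CPM, the count per 1000000 counts of a library after TMM scaling on the tested genes, a scaling that discounts such genes. Each TBX gene was far above the other groups in its own libraries, at 4470 ± 368 CPM for TBX2, 21900 ± 3870 for TBX3, 7980 ± 483 for TBX4 and 201 ± 62.4 for TBX5 (SD, n = 3). Since the TBX5 plasmid holds the mouse gene, counts at the human gene may understate its transcript. The library titled for both number 4 and TBX5 was placed in the TBX4 group by its number, and it held 85197 TBX4 counts and 1 TBX5 count. None of 5 lung adenocarcinoma markers passed 3 counts in every library, and their summed level was 1.07 to 4.13 CPM. NKX2-1 and SFTPC, defining genes of that lineage, reached at most 4 counts and 1 count. Of 5 epithelial markers, EPCAM, CDH1 and KRT19 reached at most 3, 2 and 2 counts. The other epithelial markers, KRT8 and KRT18, stood at 19.3 to 52.7 CPM and 43.2 to 75.8 CPM. The mesenchymal gene VIM stood at 692 to 970 CPM. The 2 blood markers summed to at most 0.355 CPM and the 2 fibroblast markers to at most 0.812 CPM.

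**Figure D1:**
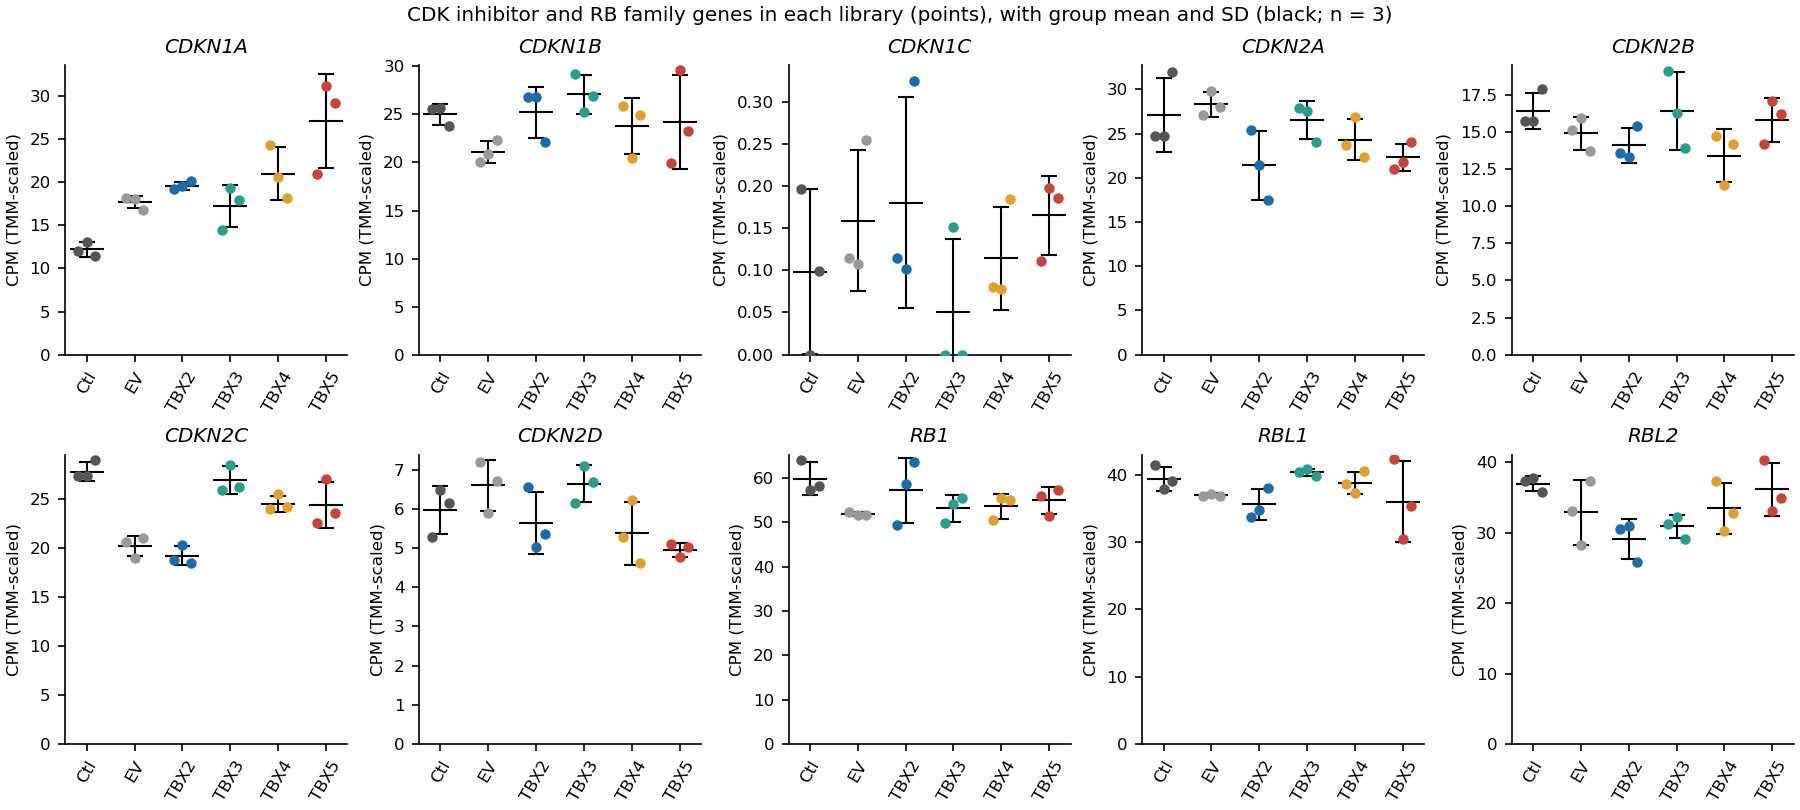
Level of each of the 10 genes in CPM after TMM scaling (y axis, from 0, with its own range in each panel) by group (x axis). Points are the 3 libraries of a group, and black bars give the mean and SD. CDKN1A rises from 11.4 to 13.1 CPM in Ctl to 21 to 31.2 CPM in TBX5, CDKN2C is low in EV and TBX2, and CDKN1C stays at or below 0.325 CPM.

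CDKN1A (ENSG00000124762, chromosome 6, 36644237 to 36655114, GRCh37, plus strand) encodes p21, which binds complexes of cyclins with CDK2. It was the one member called higher in 3 of the 4 overexpression groups against the pooled controls. The Ctl libraries held 12.0, 13.1 and 11.4 CPM and the EV libraries 18.2, 18 and 16.8 CPM. With TBX2 the libraries held 19.2, 19.6 and 20.1 CPM, with TBX3 14.5, 19.3 and 17.9, with TBX4 24.3, 20.6 and 18.2, and with TBX5 21, 31.2 and 29.2 CPM. All TBX2 and TBX5 libraries lay above every control library, the lowest TBX4 library was level with the highest EV library, and TBX3 overlapped EV. No TBX2 or TBX3 library fell below the lowest Ctl library, and TBX3 replicate a, at 14.5 CPM, was below all 3 EV libraries.

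The RefSeq promoter window of CDKN1A is printed because it carries a match to the T-box element AGGTGTGA, which is in capitals. The window runs from 250 bases before the transcription start through the 50 bases from it, at chr6:36678464-36678763 on the plus strand of GRCh38.p14, and the match begins 1 base after the start base.
CDKN1A: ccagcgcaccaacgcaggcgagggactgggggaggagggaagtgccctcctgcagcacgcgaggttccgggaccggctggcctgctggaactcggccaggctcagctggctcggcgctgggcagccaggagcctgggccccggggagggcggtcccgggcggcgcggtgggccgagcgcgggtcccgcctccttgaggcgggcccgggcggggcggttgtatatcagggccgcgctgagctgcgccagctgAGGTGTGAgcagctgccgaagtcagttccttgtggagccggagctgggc
Both strands of all 35116 windows of this table were searched, and 0.98% held AGGTGTGA, 3.45% its part GGTGTGA and 12.0% the shorter part GTGTGA. Windows were matched for 9 members (13 windows, since CDKN2A, CDKN2C and RBL2 have more than 1 start). AGGTGTGA occurred in that of CDKN1A alone, GGTGTGA also in 1 window of CDKN2C, and GTGTGA in 3 of the 13. A match is a description of the letters and does not show binding.

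Against the 6 pooled controls, CDKN1A was 1.77-fold higher with TBX5 (log2 fold change 0.82 ± 0.14 SE, adjusted p = 0.000779), 1.41-fold with TBX4 (0.50 ± 0.12, adjusted p = 0.00827) and 1.31-fold with TBX2 (0.39 ± 0.13, adjusted p = 0.025). With TBX3 the value was 0.21 ± 0.13 (adjusted p = 0.346). These were edgeR quasi-likelihood tests with Benjamini-Hochberg adjustment over all tested genes, and an adjusted p under 0.1, the level used in the study, counted as a call. The 3 calls against pooled controls held with any single library left out, with a highest adjusted p of 0.0656 for TBX2, 0.097 for TBX4 and 0.0126 for TBX5.

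The controls were not alike at this gene. EV exceeded Ctl 1.44-fold (0.53 ± 0.10, adjusted p = 0.0171), a call that was lost without EV replicate a (adjusted p = 0.11), with DESeq2 (0.101) and in 1 fit of all 18 libraries (0.143). Set against EV alone, CDKN1A was called higher with TBX5 only (0.58 ± 0.13, adjusted p = 0.00954). The values for TBX2, TBX3 and TBX4 against EV were 0.16 ± 0.10, -0.03 ± 0.10 and 0.26 ± 0.10, with adjusted p of 0.258, 0.913 and 0.125. Against Ctl alone all 4 groups were called higher, between 0.50 ± 0.12 (TBX3) and 1.12 ± 0.14 (TBX5). The TBX5 libraries at 31.2 and 29.2 CPM were those in which ENSG00000266658 took 53.5% and 52.7% of the counts, against 22.5% in the library at 21 CPM. With that share as a covariate the TBX5 value was 0.81 ± 0.15 (adjusted p = 0.000981), whereas the TBX4 value was 0.32 ± 0.14 and no longer called (adjusted p = 0.249). Without TBX4 replicate c, the library with the ambiguous title, the TBX4 value was 0.59 (adjusted p = 0.00515).

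CDKN1B (ENSG00000111276, chromosome 12, 12838432 to 12875303, plus strand) encodes p27, which binds cyclin E and CDK2 and accumulates in resting cells. Its levels were 25.6, 25.7 and 23.8 CPM in Ctl and 20.0, 20.9 and 22.3 CPM in EV. With TBX3 they were 29.2, 25.2 and 26.9 CPM, above all EV libraries but overlapping Ctl. The TBX2 libraries held 26.8, 26.8 and 22.1 CPM, those of TBX4 25.9, 20.5 and 24.9, and those of TBX5 19.9, 29.6 and 23.3 CPM. Against pooled controls CDKN1B was called higher with TBX3 (0.23 ± 0.08, adjusted p = 0.085), a call made in 4 of 9 fits that left out 1 library. The lowest value among these fits was 0.18 without TBX3 replicate a (adjusted p = 0.305), and the call was also lost without TBX3 replicate c (0.188) or EV replicate a (0.155), b (0.148) or c (0.141). Against EV alone it was 0.35 ± 0.09 with TBX3 (adjusted p = 0.0161) and 0.27 ± 0.10 with TBX2 (adjusted p = 0.06), and against Ctl alone 0.11 with TBX3 (adjusted p = 0.501).

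CDKN1C (ENSG00000129757, chromosome 11, 2904443 to 2907005, minus strand) encodes p57, an imprinted inhibitor active mainly in development. It had 0 to 4 counts in a library and 21 in all 18 libraries together. The floor of 3 counts corresponded to 0.191 to 0.595 CPM, so that neither a level nor a change could be given at this depth. No T-box group exceeded 2 counts in any library.

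CDKN2A (ENSG00000147889, chromosome 9, 21967751 to 21995300, minus strand) encodes both p16INK4a and p14ARF from separate first exons, and gene counts do not separate these transcripts. The Ctl libraries held 24.7, 24.7 and 32.0 CPM and the EV libraries 27.1, 29.8 and 28.0 CPM. TBX2 libraries held 25.4, 21.4 and 17.5 CPM and TBX5 libraries 21, 21.8 and 24.0 CPM. All 3 TBX5 libraries were below every control library, and 2 of the 3 TBX2 libraries were. With TBX3 the values were 27.9, 27.6 and 24.0 CPM and with TBX4 23.7, 26.9 and 22.3 CPM, which overlapped the controls.

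CDKN2A was called lower with TBX2 (-0.35 ± 0.10, adjusted p = 0.0138) and with TBX5 (-0.33 ± 0.10, adjusted p = 0.0372). Values of -0.08 ± 0.09 with TBX3 and -0.19 ± 0.08 with TBX4 were not called (adjusted p = 0.636 and 0.168). EV and Ctl differed here by 0.06 ± 0.09 (adjusted p = 0.884). Against EV alone both calls were made again, at -0.38 ± 0.11 (adjusted p = 0.0186) for TBX2 and -0.36 ± 0.09 (adjusted p = 0.0309) for TBX5. The TBX2 call was lost without TBX2 replicate c (-0.24, adjusted p = 0.11), and the TBX5 call without TBX5 replicate a (-0.27, 0.167) or b (-0.32, 0.112) and against Ctl alone (-0.29, 0.173). TBX2 and TBX5 differed from each other by -0.03 ± 0.13, with a 95% interval from -0.27 to 0.22. Of the exon bases of CDKN2A, 15.3% lie under exons of the antisense gene CDKN2B-AS1, and the counting took no account of strand, so reads there cannot be told apart. CDKN2B-AS1 itself was not called in any TBX group, with values between -0.19 ± 0.21 (TBX5) and 0.30 ± 0.17 (TBX3). Neither of the 2 CDKN2A promoter windows held GTGTGA.

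CDKN2B (ENSG00000147883, chromosome 9, 22002902 to 22009304, minus strand), the neighbour of CDKN2A, encodes p15, an inhibitor induced by TGF-beta. Its levels ran from 13.7 to 17.9 CPM in the 6 controls and from 11.4 to 19.1 CPM in the 12 TBX libraries, and the ranges of all groups overlapped the controls. It was not called in any TBX group, and its value farthest from 0 was -0.23 ± 0.10 with TBX4 (adjusted p = 0.157), with 95% limits of -0.42 and -0.04.

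CDKN2C (ENSG00000123080, chromosome 1, 51426417 to 51440306, plus strand) encodes p18, an INK4 inhibitor of CDK4 and CDK6. Ctl libraries held 27.3, 27.3 and 29.0 CPM, and EV libraries 20.6, 19.0 and 21 CPM. TBX2 libraries stayed with EV at 18.8, 20.3 and 18.5 CPM. TBX3 libraries held 25.9, 28.5 and 26.2 CPM, TBX4 libraries 24.0, 25.5 and 24.2, and TBX5 libraries 22.5, 27 and 23.6 CPM. Every TBX3, TBX4 and TBX5 library was above every EV and TBX2 library.

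EV was called below Ctl (-0.46 ± 0.08, adjusted p = 0.00875), in 6 of 6 fits that left out 1 library. Against the pooled controls, CDKN2C was called lower with TBX2 (-0.32 ± 0.12, adjusted p = 0.0562), and this call was made in 4 of 9 such fits. It was lost without Ctl replicate a (adjusted p = 0.104), b (0.103) or c (0.12) and without TBX2 replicate a (0.167) or c (0.147). Against EV alone the TBX2 value was -0.06 ± 0.10 (adjusted p = 0.689). Against EV alone CDKN2C was instead called higher with TBX3 (0.40 ± 0.08, adjusted p = 0.0065) and TBX4 (0.27 ± 0.08, adjusted p = 0.0487), and the TBX5 value was 0.25 ± 0.10 (adjusted p = 0.157). Against the pooled controls these were 0.16 ± 0.11, 0.03 ± 0.10 and 0.00 ± 0.12, none of them called.

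The upstream promoter window of CDKN2C is printed for its match to GGTGTGA, on the minus strand, so that TCACACC stands in capitals. The match begins 47 bases before that start, and the window is at chr1:50960495-50960794 on the plus strand of GRCh38.p14.
CDKN2C: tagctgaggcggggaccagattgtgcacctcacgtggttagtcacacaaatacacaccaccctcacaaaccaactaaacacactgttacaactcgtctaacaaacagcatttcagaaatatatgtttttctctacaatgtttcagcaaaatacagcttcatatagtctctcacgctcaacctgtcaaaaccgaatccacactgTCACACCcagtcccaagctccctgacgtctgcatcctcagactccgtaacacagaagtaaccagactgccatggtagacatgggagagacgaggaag

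CDKN2D (ENSG00000129355, chromosome 19, 10677136 to 10679735, minus strand) encodes p19, the remaining INK4 inhibitor, whose RNA is known to vary through the cell cycle. It was the member with the fewest counts among those tested, 24 to 105 a library. Controls held 5.29 to 7.20 CPM and the TBX5 libraries 5.10, 4.76 and 5.02 CPM, all below every control. The TBX5 value was -0.34 ± 0.16 and was not called (adjusted p = 0.193), nor were those of TBX2 (-0.16 ± 0.14), TBX3 (0.07 ± 0.13) and TBX4 (-0.22 ± 0.13).

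RB1 (ENSG00000139687, chromosome 13, 48877880 to 49173572, plus strand) encodes pRB, the tumour suppressor that restrains the activating E2F factors. It ran from 49.3 to 64.0 CPM over all 18 libraries, and every TBX group overlapped the controls. Values against pooled controls were 0.03 ± 0.08 for TBX2, -0.07 ± 0.07 for TBX3, -0.06 ± 0.07 for TBX4 and -0.02 ± 0.08 for TBX5. None was called, and all 95% limits lay between -0.21 (TBX3) and 0.19 (TBX2).

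RBL1 (ENSG00000080839, chromosome 20, 35624752 to 35724400, minus strand) encodes p107, a pocket protein of cycling cells that is itself an E2F target. Its promoter window was the only one among the members to hold an E2F motif of the pair searched (TTTGGCGC, found in 0.652% of all windows, and TTTCCCGC, in 1.63%), 16 bases before the start. The controls held 36.8 to 41.4 CPM, TBX2 33.8, 34.8 and 38.1 CPM, and TBX5 42.4, 30.4 and 35.4 CPM, the widest spread of any group. RBL1 was not called in any TBX group, with values from -0.11 ± 0.07 (TBX2) to 0.08 ± 0.06 (TBX3).

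RBL2 (ENSG00000103479, chromosome 16, 53467889 to 53525560, plus strand) encodes p130, the pocket protein of the DREAM complex in resting cells. Ctl libraries held 37.4, 37.8 and 35.8 CPM and EV libraries 33.1, 28.2 and 37.4 CPM. With TBX2 they held 30.5, 31.0 and 25.8 CPM and with TBX3 31.3, 32.3 and 29.1 CPM, all of them below the Ctl libraries but overlapping EV. TBX4 libraries held 37.4, 30.2 and 32.8 CPM and TBX5 libraries 40.4, 33.1 and 35.0 CPM. RBL2 was called lower with TBX2 (-0.26 ± 0.09, adjusted p = 0.0365), a call lost without TBX2 replicate c (-0.19, adjusted p = 0.19) and against EV alone (-0.17, adjusted p = 0.256). With TBX3 the value was -0.20 ± 0.08 and was not called (adjusted p = 0.143), with TBX4 -0.08 ± 0.08 and with TBX5 0.06 ± 0.09.

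**Figure D2:**
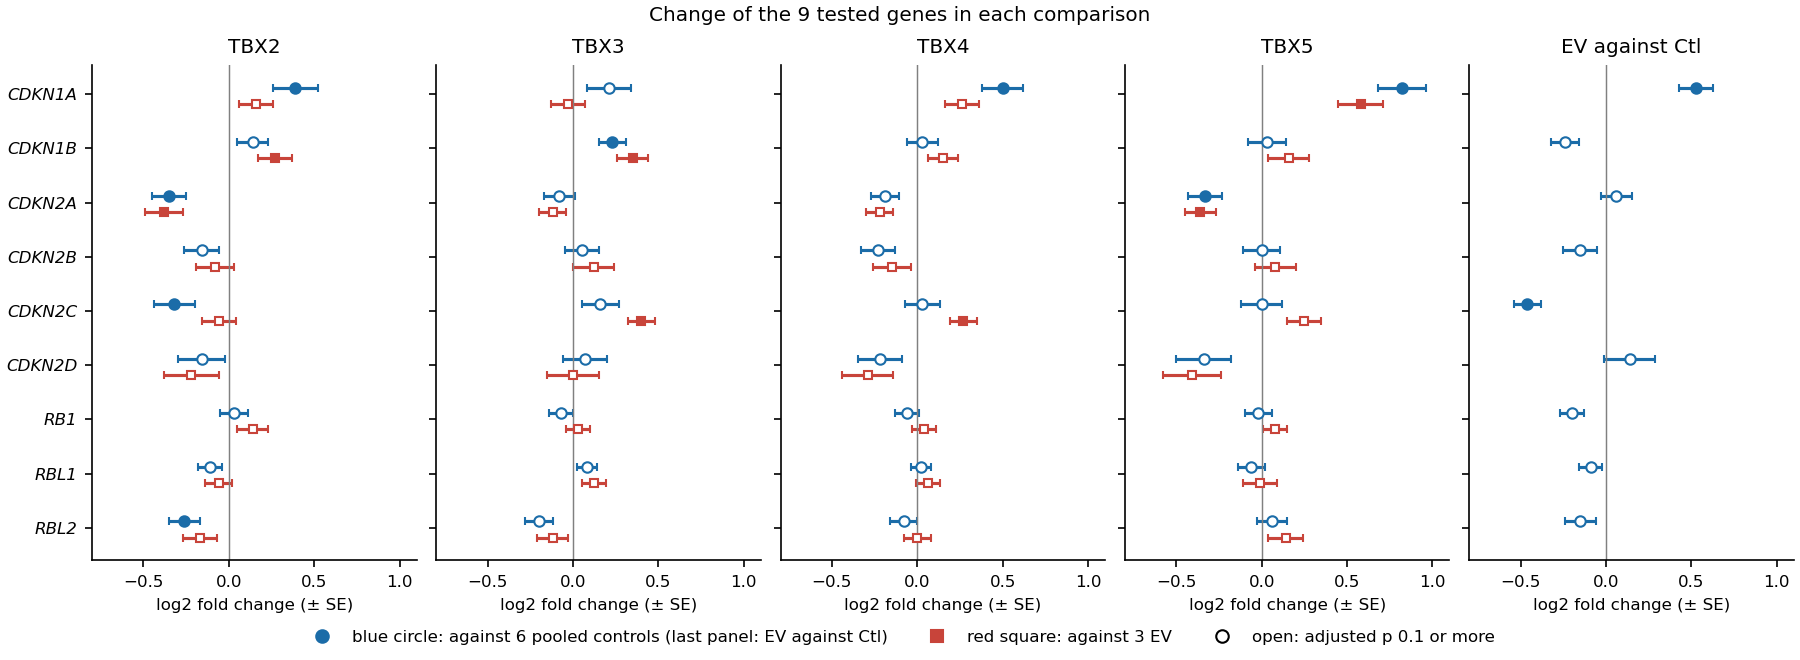
Log2 fold change ± SE (x axis) of the 9 tested genes (y axis) in each TBX group against the 6 pooled controls (blue circles) and against the 3 EV libraries (red squares), with EV against Ctl in the last panel; filled symbols passed an adjusted p of 0.1. CDKN2A lies near the same value under both controls with TBX2 and TBX5, while CDKN1A and CDKN2C shift with the control used.

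Counted together, TBX2 called 1 member higher and 3 lower of 9, beside 17.0% of all tested genes called higher and 15.6% called lower in that comparison. TBX3 called 1 higher (CDKN1B) and none lower, beside 8.47% and 6.40% of all genes. TBX4 called 1 higher (CDKN1A) and none lower, beside 6.97% and 6.07%. TBX5 called 1 higher (CDKN1A) and 1 lower (CDKN2A), beside 6.55% and 6.12%. At an unadjusted p under 0.05, edgeR placed 1 member lower with TBX3 and 2 lower with TBX4, while DESeq2 called none lower in either group and none higher with TBX3. The median log2 fold change of the 9 members was -0.16 for TBX2, 0.07 for TBX3, -0.06 for TBX4 and -0.00 for TBX5, against medians of -0.00, -0.00, -0.01 and -0.00 over all tested genes. EV against Ctl called 1 member higher and 1 lower, CDKN1A and CDKN2C, beside 0.282% and 0.103% of all genes. Against EV alone, the calls were CDKN1B higher and CDKN2A lower with TBX2 (26.7% of all genes called in either direction), CDKN1B and CDKN2C higher with TBX3 (12.2%), CDKN2C higher with TBX4 (9.27%), and CDKN1A higher and CDKN2A lower with TBX5 (8.97%). With library totals as the scaling in place of TMM, the one call against the pooled controls was CDKN1A with TBX4 (0.74 ± 0.16, adjusted p = 0.000268). The 4 comparisons share their control libraries and are not independent of each other.

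The overexpression groups were also set against one another. Control libraries do not enter these differences, but they enter the estimate of the spread, since all 18 libraries were fitted together. Of 54 tests (9 members in 6 pairs), 6 were called. CDKN2C was lower with TBX2 than with TBX3 (-0.47 ± 0.09, adjusted p = 0.00047), TBX4 (-0.35 ± 0.08, adjusted p = 0.00901) and TBX5 (-0.32 ± 0.09, adjusted p = 0.0283). The first 2 of these calls were made in 18 of 18 fits that left out 1 library, and the one against TBX5 was lost without TBX5 replicate b (adjusted p = 0.145). CDKN1A was lower with TBX3 than with TBX5 (-0.61 ± 0.13, adjusted p = 0.00381), again in 18 of 18 such fits. It was also lower with TBX2 than with TBX5 (-0.43 ± 0.13, adjusted p = 0.035), which was lost without TBX5 replicate b (0.185) or c (0.15). RBL2 was lower with TBX2 than with TBX5 (-0.32 ± 0.11, adjusted p = 0.0633), which was lost without TBX2 replicate c (0.207) or TBX5 replicate a (0.343).

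Beside these counts, the share of all genes called in either direction was 15.5% for TBX2 against TBX3, 12.3% for TBX2 against TBX4, 12.1% for TBX2 against TBX5, 9.97% for TBX3 against TBX4, 7.41% for TBX3 against TBX5 and 0.539% for TBX4 against TBX5. No member was called by edgeR or by DESeq2 between TBX3 and TBX4 or between TBX4 and TBX5. An unadjusted p under 0.05 was reached there by 2 members and by 1. For CDKN1A the TBX4 to TBX5 difference was -0.32 ± 0.12 with 95% limits of -0.56 and -0.09 (adjusted p = 0.434), so equal levels were not shown either.

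The mean of TBX2 and TBX3, the pair known as repressors, was set against the mean of TBX4 and TBX5. CDKN1A was lower in the mean of TBX2 and TBX3 (-0.36 ± 0.09, adjusted p = 0.00798), and so was RBL2 (-0.22 ± 0.07, adjusted p = 0.0501). By pairs, CDKN1A was called lower against TBX5 only. Against TBX4 it was at -0.11 ± 0.12 with TBX2 (adjusted p = 0.663) and -0.29 ± 0.12 with TBX3 (0.162). RBL2 was called in the pair of TBX2 and TBX5 alone. No member was called higher (none at an unadjusted p under 0.05, and none by DESeq2), beside 7.34% of all genes called higher and 6.25% called lower. The CDKN1A call was made in 18 of 18 fits with 1 library left out. That of RBL2 was made in 14 of 18 and was lost without TBX2 replicate c (adjusted p = 0.124), TBX3 replicate c (0.124), TBX4 replicate a (0.157) or TBX5 replicate a (0.184). CDKN2A gave 0.04 ± 0.08 here, with 95% limits of -0.12 and 0.20.

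The order of the group means differed from gene to gene. For CDKN1A it rose from Ctl (12.2 ± 0.884 CPM) through TBX3 (17.2 ± 2.44), EV (17.7 ± 0.724), TBX2 (19.6 ± 0.476) and TBX4 (21 ± 3.04) to TBX5 (27.1 ± 5.41 CPM, SD, n = 3). Of the neighbours in that order, the tests told apart Ctl and TBX3 alone. CDKN2C rose from TBX2 (19.2 ± 0.97) and EV (20.2 ± 1.05) to TBX5 (24.4 ± 2.32), TBX4 (24.5 ± 0.788), TBX3 (26.9 ± 1.43) and Ctl (27.8 ± 0.96 CPM), with no pair of neighbours told apart. CDKN2A ran from TBX2 (21.4 ± 3.92) and TBX5 (22.3 ± 1.56) through TBX4 (24.3 ± 2.33), TBX3 (26.5 ± 2.15) and Ctl (27.1 ± 4.24) to EV (28.3 ± 1.41 CPM), again with no pair of neighbours told apart.

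Levels of different genes were compared per length, as CPM per kilobase of the canonical transcript, over the 6 controls. CDKN2A (28.3 ± 2.96) and CDKN2C (24.1 ± 4.31) were the highest, and their ranges overlapped. RB1 followed at 11.7 ± 1.03 and CDKN1B at 9.56 ± 0.984, and then RBL2 (7.20 ± 0.769), CDKN1A (7.05 ± 1.47) and RBL1 (6.72 ± 0.31), whose ranges also overlapped. The range of CDKN1B, 8.29 to 10.6, overlapped that of CDKN1A, 5.39 to 8.58. CDKN2D (4.41 ± 0.464), CDKN2B (4.06 ± 0.347) and CDKN1C (0.0726 ± 0.0496) were the lowest, and the ranges of CDKN2D and CDKN2B overlapped. This order pools Ctl and EV, which differed at CDKN1A and CDKN2C. CDKN2C was at 28.0 ± 0.965 in Ctl and 20.3 ± 1.06 in EV, beside 27.7 ± 4.33 and 28.9 ± 1.44 for CDKN2A. CDKN1A was at 5.75 ± 0.418 in Ctl, under RBL1 (6.94 ± 0.311) and RBL2 (7.63 ± 0.221), and at 8.35 ± 0.342 in EV, over RBL1 (6.5 ± 0.0439) and RBL2 (6.78 ± 0.945). CDKN1B was at 10.4 ± 0.436 in Ctl and 8.75 ± 0.49 in EV. The order rests on the length used as well. Over all annotated exon bases RB1 led at 8.68, ahead of CDKN2C (7.96) and CDKN2A (7.14), and CDKN1B fell to 2.49 CPM per kilobase.

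**Figure D3:**
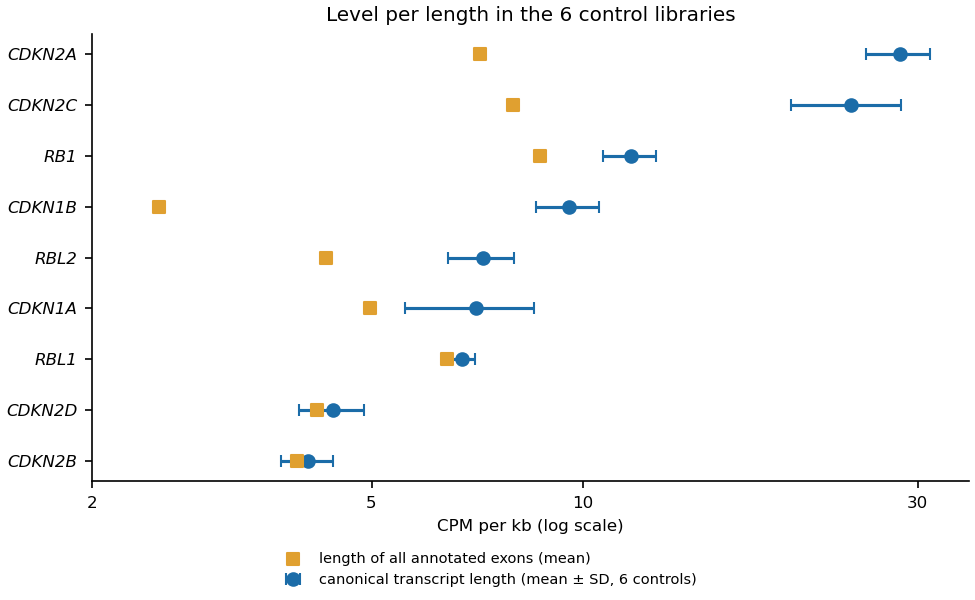
Level of the 9 tested genes (y axis) in the 6 control libraries as CPM per kilobase (x axis, log scale). Blue points with bars are the mean ± SD over the canonical transcript length, and orange squares the mean over all annotated exon bases; CDKN2A moves from 28.3 to 7.14 and CDKN1B from 9.56 to 2.49, while RBL1 stays between 6.72 and 6.41.

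Correlations of log2 CPM over the 18 libraries, which share groups and scaling, describe which genes had like patterns. Among the members the highest was CDKN2A with CDKN2D (r = 0.62) and the lowest CDKN1A with RBL1 (r = -0.54). CDKN1A was most like ZNF790 (r = 0.90) and TRIB1 (0.89). CDKN2A was most like KXD1 and CENPB (both 0.89), CDKN2B like RBM25 and UBAP2 (both 0.86), and RBL2 like ASCC1 (0.89) and ABCD3 (0.83). The closest genes were PVR (0.82) and DMWD (0.79) for CDKN2D, PIAS2 (0.82) and CFAP210 (0.80) for RBL1, and SULT4A1 (0.76) and KCTD4 (0.72) for CDKN1B. For CDKN2C they were ENSG00000251682 (0.83) and ENSG00000256146 (0.79), and for RB1 ENSG00000272379 (0.73) and PIK3C2B (0.72).

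Genes of S phase and mitosis that lie downstream of the inhibitors and pocket proteins were mostly called lower with TBX2, where 15.6% of all tested genes were. Of 14 E2F target genes of G1 and S phase, 10 were called lower with TBX2, 2 with TBX3, 2 for TBX4 and 6 for TBX5. None was called higher in any group. Of all genes, 6.40% were called lower with TBX3, 6.07% with TBX4 and 6.12% with TBX5. The shares called higher were 17.0%, 8.47%, 6.97% and 6.55% in the order TBX2 to TBX5. MCM7, a subunit of the replicative helicase, was at -0.44 ± 0.07 with TBX2 (adjusted p = 4.84e-05) and -0.28 ± 0.06 with TBX5 (adjusted p = 0.00306). MCM2, of the same helicase, was at -0.40 ± 0.07 (adjusted p = 0.000135) and -0.28 ± 0.06 (adjusted p = 0.00537). PCNA, the sliding clamp of DNA polymerase, was called lower with TBX2 (-0.34 ± 0.07, adjusted p = 0.00121) and TBX4 (-0.16 ± 0.06, adjusted p = 0.0993). Medians of the list were -0.25, -0.10, -0.08 and -0.17 in the order TBX2 to TBX5. Against EV alone, 8, 1, 0 and 3 of the 14 were called lower, and 1 was called higher, with TBX3. PCNA was then no longer called with TBX4 (-0.06, adjusted p = 0.624). For this list and those below, the shares of all genes called in either direction against EV alone were 26.7%, 12.2%, 9.27% and 8.97%. Split by direction, 1898, 869, 693 and 686 of the 15576 tested genes were called lower there, and 2255, 1028, 751 and 711 higher.

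Of 10 DREAM target genes of G2 and M phase, 9 were called lower with TBX2, 5 with TBX3, 1 for TBX4 and 3 for TBX5, and none higher. Of all genes, 15.6%, 6.40%, 6.07% and 6.12% were called lower in the order TBX2 to TBX5. The 1 with TBX4 is thus near the share of all genes. CDK1, the kinase of mitotic entry, was the one called lower in all 4 groups, at -0.44 ± 0.07 with TBX2 (adjusted p = 5.4e-05), -0.36 ± 0.08 with TBX3 (0.00503), -0.20 ± 0.06 with TBX4 (0.0391) and -0.30 ± 0.08 with TBX5 (0.0192). CCNB1, its cyclin partner, was called lower with TBX2 (-0.29 ± 0.07) and TBX3 (-0.23 ± 0.07), and CDC20, an activator of the anaphase-promoting complex, with TBX2 (-0.21 ± 0.07), TBX3 (-0.16 ± 0.06) and TBX5 (-0.28 ± 0.07). Medians of this list were -0.21, -0.15, -0.10 and -0.15 in the 4 groups. Against EV alone 5, 3, 1 and 1 of the 10 were called lower. CDK1 was then called with TBX2 (-0.39, adjusted p = 0.00163) and TBX3 (-0.31, 0.0399) but not TBX4 (-0.16, 0.173) or TBX5 (-0.25, 0.109), CCNB1 was lost with TBX3 (-0.20, 0.153), and CDC20 was called with TBX4 too (-0.20, 0.044). At an unadjusted p under 0.05 no gene of either list was higher in any group, except 1 E2F target with TBX3, and DESeq2 called none higher.

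Of 9 cyclins and kinases of G1 and S phase, 5 were called lower and 1 higher with TBX2. With TBX3 2 were called lower, with TBX5 2 lower, and with TBX4 none was called. Of all genes, 15.6% were called lower and 17.0% higher with TBX2, 6.40% lower with TBX3 and 6.12% lower with TBX5. The 1 higher with TBX2 does not exceed the share of all genes. CDK4, the kinase that INK4 proteins bind, was at -0.36 ± 0.08 with TBX2 (adjusted p = 0.0028) and -0.22 ± 0.08 with TBX3 (adjusted p = 0.074). Exons of the overlapping gene TSPAN31 cover 44.2% of its exon bases, so its counts are uncertain. CDK2, bound by p21 and p27, was called lower with TBX2 (-0.20 ± 0.08, adjusted p = 0.0602), TBX3 (-0.22 ± 0.07, adjusted p = 0.0314) and TBX5 (-0.29 ± 0.07, adjusted p = 0.00995). CCNA2, cyclin A, was at -0.27 ± 0.06 with TBX2 (adjusted p = 0.00134) and -0.21 ± 0.06 with TBX5 (adjusted p = 0.0382). Against EV alone 4 were called lower and 1 higher with TBX2, 2 lower with TBX3 and 2 lower with TBX5, and the calls of CDK2 with TBX2 (-0.19, adjusted p = 0.158) and CCNA2 with TBX5 (-0.18, 0.16) were lost. For TBX4, edgeR placed 1 of these genes higher and 1 lower at an unadjusted p under 0.05, and DESeq2 called none.

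Of 10 E2F and DP factors, which pocket proteins hold in check, 4 were called lower with TBX2, 1 lower and 2 higher with TBX3, 1 higher with TBX4 and 2 lower with TBX5. Over all genes 15.6% were lower with TBX2, 8.47% higher and 6.40% lower with TBX3, 6.97% higher with TBX4 and 6.12% lower with TBX5. Against EV alone the counts were 4 lower, 1 lower and 1 higher, 1 higher, and 1 lower. E2F1 was at -0.37 ± 0.08 with TBX2 (adjusted p = 0.0018) and -0.26 ± 0.07 with TBX5 (adjusted p = 0.0336). TFDP1, its partner DP1, was at -0.27 ± 0.07 with TBX2 (adjusted p = 0.00856) and -0.19 ± 0.07 with TBX3 (adjusted p = 0.0963). The 7 genes of MuvB, B-MYB and FOXM1 gave 2 lower and 1 higher with TBX2 and 1 higher with TBX3. Beside these, 15.6% of all genes were called lower and 17.0% higher with TBX2, and 8.47% higher with TBX3. The 1 higher with TBX2 is thus near the share of all genes. With TBX4 and TBX5 no gene of this list was called. There edgeR gave 1 at an unadjusted p under 0.05 in each group, and DESeq2 called none.

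Of 6 genes that act in the turnover of p21, p27 and p57, 4 were called lower with TBX2, 2 with TBX3, 1 for TBX4 and 2 for TBX5. Of all genes, 15.6%, 6.40%, 6.07% and 6.12% were called lower in these groups. None of the 6 was called higher (none at an unadjusted p under 0.05, and none by DESeq2). SKP2, the ubiquitin ligase subunit that recognises p27, was at -0.32 ± 0.07 with TBX2 (adjusted p = 0.00125) and -0.21 ± 0.06 with TBX3 (adjusted p = 0.0352), the latter not called against EV alone (-0.19, adjusted p = 0.102). Against EV alone 4, 1, 1 and 2 of the list were called lower, beside 1898, 869, 693 and 686 of all 15576 tested genes. PCNA and CDC20 stand on this list too, so it is not separate from the lists above.

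Among 19 tested regulators of the inhibitor genes (TP63 was too low), 3 were called higher and 4 lower with TBX2, 4 higher and 1 lower with TBX3, 1 lower with TBX4, and 1 higher and 2 lower with TBX5. Shares over all genes were 17.0% higher and 15.6% lower with TBX2, 8.47% and 6.40% with TBX3, 6.97% and 6.07% with TBX4, and 6.55% and 6.12% with TBX5. The 3 higher with TBX2, the 1 lower with TBX3 and with TBX4, and the 1 higher with TBX5 are near the share of all genes. The 4 lower with TBX2 are little above it. Against EV alone the calls were 2 higher and 1 lower with TBX2, the same numbers with TBX3, none with TBX4, and 1 higher and 1 lower with TBX5. FOXO4, a forkhead factor that can activate CDKN1B, was at 1.12 ± 0.23 with TBX2 (adjusted p = 0.00088), 0.72 ± 0.25 with TBX3 (adjusted p = 0.0711) and 1.00 ± 0.26 with TBX5 (adjusted p = 0.0168). Its counts were low, at 11 to 16 a library in Ctl and 12 to 24 in EV. They were 21 to 33 with TBX2, 17 to 32 with TBX3 and 16 to 27 with TBX5. KLF4, an activator of CDKN1A, was at 0.32 ± 0.14 with TBX2 (adjusted p = 0.0899) and 0.46 ± 0.12 with TBX3 (adjusted p = 0.0182). ID1, a repressor of CDKN2A, was at -0.32 ± 0.12 with TBX2 (adjusted p = 0.0423) and -0.45 ± 0.13 with TBX5 (adjusted p = 0.029). SMAD3, which carries TGF-beta signals to CDKN2B, was at -0.37 ± 0.07 with TBX2 (adjusted p = 0.000377) and -0.16 ± 0.06 with TBX4 (adjusted p = 0.09). Against EV alone several of these calls were lost. KLF4 was at 0.21 with TBX2 (adjusted p = 0.378) and 0.33 with TBX3 (0.145), ID1 at -0.18 with TBX2 (0.339) and -0.31 with TBX5 (0.197), FOXO4 at 0.55 with TBX3 (0.27), and SMAD3 at -0.07 with TBX4 (0.518). SMAD3 was then called higher with TBX3 (0.19, adjusted p = 0.0639).

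Of 11 senescence markers, 6 were tested, since IL6, CXCL8, CCL2, MMP3 and IGFBP7 were too low. Of these, 4 were called lower with TBX2, 2 with TBX3, 3 for TBX4 and 3 for TBX5, beside 15.6%, 6.40%, 6.07% and 6.12% of all genes called lower. With TBX5 1 was also called higher, beside 6.55% of all genes. The list mixes genes known to fall and genes known to rise in senescence. LMNB1, a lamin that falls in senescent cells, was lower in all 4 groups, from -0.35 ± 0.07 (TBX2, adjusted p = 0.00107) to -0.20 ± 0.07 (TBX5, adjusted p = 0.0904), and HMGB2, a chromatin protein that also falls, with TBX2 (-0.37 ± 0.09), TBX4 (-0.26 ± 0.07) and TBX5 (-0.32 ± 0.09). Against EV alone 3, 1, 1 and 1 of the 6 were called lower. LMNB1 was then called with TBX2 (-0.25, adjusted p = 0.0177) but not TBX3 (-0.14, 0.208), TBX4 (-0.16, 0.136) or TBX5 (-0.10, 0.407), and HMGB2 with TBX2 (-0.28, adjusted p = 0.0392) but not TBX4 (-0.18, 0.14) or TBX5 (-0.24, 0.137).

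**Figure D4:**
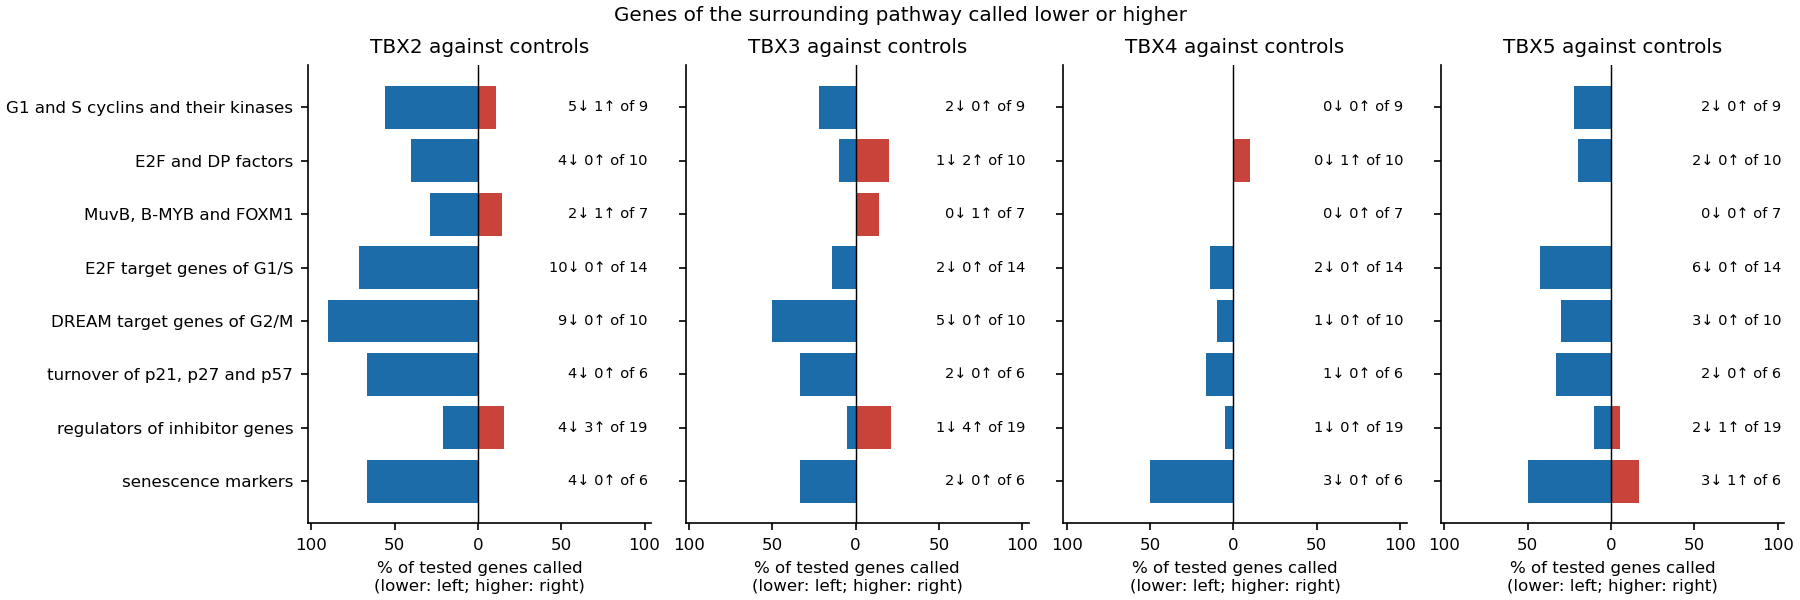
Percent of the tested genes of each list (y axis) called lower (blue, to the left) or higher (red, to the right) in each TBX group against the pooled controls, with the counts written at the right of each bar. With TBX2, 10 of 14 E2F target genes and 9 of 10 DREAM target genes are called lower, against 2 and 1 with TBX4. Of all tested genes, 15.6% are called lower with TBX2 and 6.07% with TBX4.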

How the data were processed

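RNA from 18 NCI-H1299 libraries was sequenced by the authors as paired-end reads, aligned with STAR (2.3.0) to GRCh37 and counted per gene with featureCounts at default settings, which ignore strand. The deposited values are whole-number counts per gene, not normalised, for 63677 genes, of which 87.4% matched a symbol. Columns matched sample titles. Gene positions are from a GENCODE release mapped to GRCh37, and promoters from RefSeq (GRCh38.p14).

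A gene was kept where 10 or more of the 18 libraries held over 5 counts. Each TBX group was tested against 6 pooled controls, and EV against Ctl, in separate edgeR (4.0.16, R 4.3.3) quasi-likelihood fits with TMM scaling; pairs of TBX groups and the mean of TBX2 and TBX3 against that of TBX4 and TBX5 came from 1 fit of all libraries. An adjusted p (Benjamini-Hochberg over 15576 genes) under 0.1 was a call. Standard errors are the fold change divided by the square root of F, and 95% limits are 1.96 standard errors. Alternatives were DESeq2 (1.42.0), other scalings, filters and controls, a replicate block, a covariate for the share of counts at ENSG00000266658, and leaving out each library. Scripts were tested on simulated counts. Replicate pairs differed by more than sampling noise (chi-square per degree of freedom 2.12 to 233). This was taken on counts without TMM and with ENSG00000266658 included, so it does not give the spread of the members. The lowest value was for EV a and b, where that gene took 32.7% and 34.7% of the counts. The highest was for TBX3 b and c, with 47.4% and 10.7%.

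The members and lists were chosen with earlier results of these data known. All 10 members are named. From other lists, genes called in 2 or more of the 4 TBX contrasts are named, up to 3 a list and direction by smallest p, as are the 2 genes with the highest r for each tested member. Results for 2 genes that this rule or the check of the cell line would name are not reported here.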

Additional observations from a re-analysis of the deposited data

How the results depend on the processing

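The choice of control and the scaling mattered most. Against pooled controls 4 members were called with TBX2, against EV alone 2 (CDKN2A, 1 of the 4, and CDKN1B), and 0 when edgeR used library totals in place of TMM. The single call with TBX3, CDKN1B, became 2 against EV alone (CDKN1B and CDKN2C) and 2 others against Ctl alone (CDKN1A and RBL2), and 0 with DESeq2, with 1 fit of all libraries, with an adjusted p of 0.05, without the low-count filter or with library totals. The TBX4 call became 0 with a covariate for the share of counts at ENSG00000266658. The 2 calls with TBX5 became 1 against Ctl alone and 0 with library totals. For EV against Ctl, 2 became 1 with DESeq2 or 1 fit of all libraries and 0 with library totals. For TBX2 and TBX3 against TBX4 and TBX5, 2 became 1 at an adjusted p of 0.05 and 0 with library totals. Library totals moved the median of all genes by up to 0.57 (TBX4 against TBX5), turned CDKN2C in TBX2 against TBX5 from -0.32 to 0.001, and changed the sign of 35 of 108 member values. The calls over all genes then split unlike those with TMM, with 98.8% higher with TBX4 (53.5% with TMM), 78.9% with TBX2 (52.2%), 100% with TBX3 (57%) and 40.9% with TBX5 (51.7%), and from 9.09% (TBX3 against TBX4, 59.7% with TMM) to 99.8% (TBX4 against TBX5, 20.2%) in the pairs. Library totals without the 2 most counted genes, chosen after seeing the data, changed 4 of 108 member calls, and 33% of the calls with TBX3 were then higher (69.6% in TBX2 against TBX3, 33.6% in TBX3 against TBX4). Over all genes, EV against Ctl called 44 higher and 16 lower with edgeR, 20 and 10 with DESeq2 and 62 and 67 without the filter, and TBX4 called 1086 and 945, or 465 and 335 with the covariate.

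With 1 library left out, the calls ran from 1 to 4 for TBX2, 0 to 1 for TBX3, 1 to 2 for TBX4, 1 to 2 for TBX5, 1 to 2 for EV against Ctl, 1 to 3 for TBX2 and TBX3 against TBX4 and TBX5, and 4 to 8 over the 6 pairs. Same-lettered libraries did not deviate together (mean r = -0.000917, against 0.000477 between letters), so the letters were not taken as pairs, and with a replicate block the calls were again 4, 1, 1, 2, 2, 2 and 6, with no member call changed. CDKN1C and other genes with few counts are limited by depth.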
